A study of Mus musculus with 8 samples.

Results

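The TALE homeobox genes are described here by 9 members, Meis1, Meis2, Meis3, Pbx2, Pbx3, Pbx4, Pknox1, Pknox2 and Tgif1. They were taken by gene name from the deposited table of 16096 genes. All 9 were present, and all 9 had enough counts in both groups to be tested. The assay was RNA sequencing of peripheral retina, dissected from C57BL/6 mouse embryos at embryonic day 16.5, in 4 libraries labelled Pax6alpha-Cre:Ezh2fl/null and 4 labelled Pax6alpha-Cre:Ezh2fl/+. Ezh2 is the catalytic subunit of Polycomb repressive complex 2, which methylates histone H3 and keeps developmental genes silent. Every embryo carried the Cre driver, which is named for the Pax6 alpha enhancer and acts in the peripheral retina, and a floxed Ezh2 allele. The second Ezh2 allele was null in Ezh2fl/null embryos and wild type in Ezh2fl/+ embryos. Cells that the driver does not reach therefore still hold a floxed Ezh2 allele that has not been recombined. Each library is a separate sample in the labels. Neither the embryo or litter behind it nor any pooling is stated, so each p-value is set against the spread of these samples, which may be technical. The comparison addresses which transcripts differ in developing retina between these genotypes.

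TALE proteins share a homeodomain with an extended loop. Meis and Pknox (also called Prep) proteins bind Pbx proteins, and these pairs join Hox proteins on DNA, where they sharpen the choice of binding site. Tgif proteins lack the Pbx-binding part and act mostly as transcriptional repressors, among others with Smad proteins. In the vertebrate eye, Meis1 and Meis2 are expressed in retinal progenitors and act upstream of Pax6, and Meis2 later marks inhibitory amacrine cells.

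The promoters of Meis2 and Meis1 are shown because these paralogs moved in opposite directions and because Polycomb repressive complex 2 is known to occupy promoters rich in CG dinucleotides. Each window runs from 250 bases before to 50 bases after a RefSeq transcription start (GRCm38.p6, the mm10 assembly), is written on the gene's own strand and has its CG dinucleotides in capitals. The Meis2 window lies at chr2:116064570-116064869, minus strand, and the Meis1 window at chr11:19018920-19019219, minus strand.
Meis2: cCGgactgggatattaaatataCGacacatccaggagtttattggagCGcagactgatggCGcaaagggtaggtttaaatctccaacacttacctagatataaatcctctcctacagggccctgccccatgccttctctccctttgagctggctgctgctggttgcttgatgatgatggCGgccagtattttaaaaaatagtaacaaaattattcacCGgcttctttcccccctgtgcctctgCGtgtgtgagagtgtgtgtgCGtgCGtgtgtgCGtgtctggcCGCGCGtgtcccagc
Meis1: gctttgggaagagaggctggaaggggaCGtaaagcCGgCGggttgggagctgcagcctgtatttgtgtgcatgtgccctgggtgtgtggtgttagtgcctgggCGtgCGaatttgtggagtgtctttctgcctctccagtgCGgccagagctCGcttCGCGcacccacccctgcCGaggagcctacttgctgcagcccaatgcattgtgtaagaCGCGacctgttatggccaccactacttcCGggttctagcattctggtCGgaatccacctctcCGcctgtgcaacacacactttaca
The Meis2 window held 13 CG dinucleotides and the Meis1 window 15, against a median of 7 over 32841 such windows of 300 bases. Fewer CG dinucleotides stood in 62.1% of all windows than in that of Meis2, and in 65.4% than in that of Meis1. Windows were found for 6 of the 9 members. Members that were not called had as many or more in most of theirs, with 21 in Meis3, 29 in Pbx2, 19 in Pbx4 and 2 to 23 in 5 Tgif1 windows. The Meis half-site TGACAG, searched on both strands, was in neither window and is in 19.2% of all windows, and the Pbx-Hox site TGATTNAT was in neither and is in 3.22% of all windows. Such a match or its lack describes only these letters.

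Meis2 rose in every library labelled Ezh2fl/null, Pbx3 and Pknox2 rose by less, and Meis1 fell. Over the 9 members, 3 were called higher, 1 was called lower and 5 were not called (quasi-likelihood test of edgeR; adjusted p under 0.05 by Benjamini and Hochberg over all 15014 genes tested). Among all genes tested, 11.8% were called, 8.35% as higher and 3.46% as lower. The median log2 fold change of the members was -0.0029, beside -0.0074 for all genes tested. A tissue sample cannot tell more or fewer cells of a type from more or less RNA per cell, here or in any result below.

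**Figure D1:**
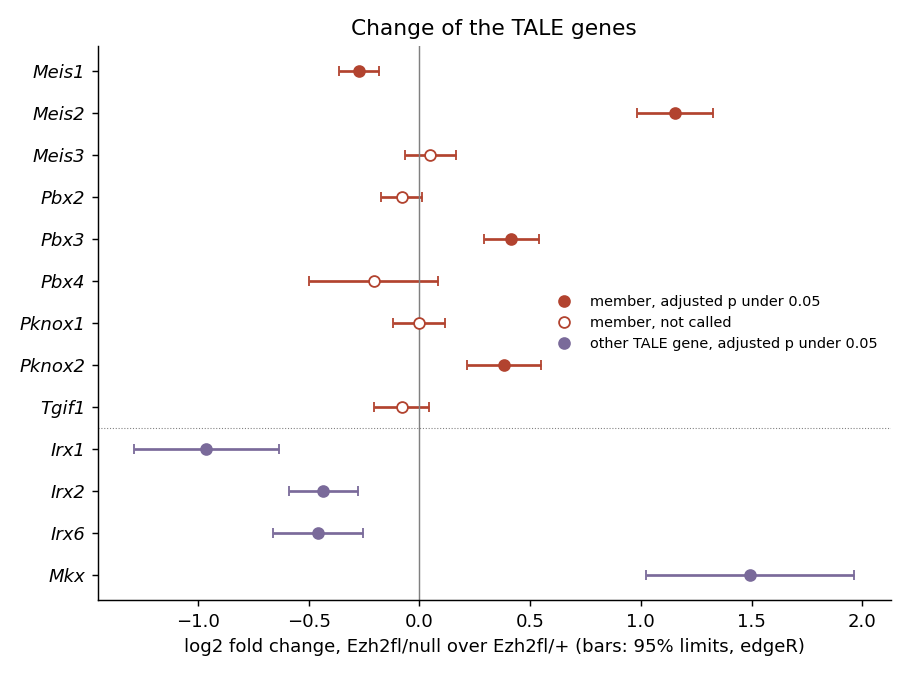
The log2 fold change of each gene, Ezh2fl/null over Ezh2fl/+, runs along the horizontal axis with 95% limits from the edgeR fit (4 libraries a group). Filled circles passed the adjusted p of 0.05 and open circles did not. Meis2, Pbx3 and Pknox2 lie right of 0 and Meis1 left of it. Below the dotted line, Mkx lies right of 0 and Irx1, Irx2 and Irx6 lie left of it.

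The libraries held 13994825 to 18391647 counts each. All 5 retinal markers looked up, Rax, Pax6 and Lhx2 among them, were counted, with a summed level of 1567 to 1629 CPM (counts scaled to the normalized library size) in Ezh2fl/null libraries and 1764 to 1773 CPM in Ezh2fl/+ libraries. The whole-gene level of Ezh2 was 251 ± 23.1 CPM in Ezh2fl/null libraries and 217 ± 18.1 CPM in Ezh2fl/+ libraries (SD, n = 4 each), a log2 fold change of 0.21 (edgeR adjusted p = 0.0701). It passed with DESeq2 (0.20, adjusted p = 0.0423), with the replicate number as a block (0.21, edgeR adjusted p = 0.0250) and without Ezh2fl/null replicate 4 (0.26, edgeR adjusted p = 0.0129), and the adjusted p lay between 0.0129 and 0.268 in 18 alternatives. Such a count over the whole gene does not check the loss of a floxed part, and all directions are those of the libraries as labelled. Xist counts of 1874 and 1714 marked Ezh2fl/null replicates 2 and 3 as female, against at most 4 counts in each of the other 6 libraries. Lens crystallin counts marked Ezh2fl/null replicate 2 and Ezh2fl/+ replicate 1. Mitochondrial rRNA made up 9.84% to 14.0% of the counts in Ezh2fl/null libraries, 13.7% and 13.5% in Ezh2fl/+ replicates 1 and 3, and 8.72% and 8.19% in Ezh2fl/+ replicates 2 and 4.

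Meis2 (ENSMUSG00000027210, mm10 chromosome 2, 115863064 to 116065839, minus strand) showed the largest change of the 9 members. It had 202, 202, 170 and 152 CPM in Ezh2fl/null replicates 1 to 4 and 87.1, 78.1, 82.7 and 78.2 CPM in Ezh2fl/+ replicates 1 to 4. The lowest Ezh2fl/null library stood well above the highest Ezh2fl/+ library, and the spread was wider in Ezh2fl/null (mean 181 ± 24.9 CPM) than in Ezh2fl/+ (mean 81.5 ± 4.28 CPM; SD, n = 4 each). The level was 2.23-fold that of Ezh2fl/+ (95% limits 1.98 to 2.51; log2 1.15, SE 0.08, edgeR adjusted p = 3.11e-07). These CPM rest on 2458 to 3756 counts in Ezh2fl/null libraries and on 1163 to 1405 counts in Ezh2fl/+ libraries. The gene has 6 protein-coding transcripts in GENCODE M21, and the counts sum over them, so isoforms were not told apart.

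Meis1 (ENSMUSG00000020160, chromosome 11, 18879817 to 19018985, minus strand), the closest paralog and another progenitor factor, fell in the same libraries. It had 176, 177, 166 and 177 CPM in Ezh2fl/null replicates 1 to 4 and 203, 206, 220 and 211 CPM in Ezh2fl/+ replicates 1 to 4. The groups did not overlap, and each was tight (174 ± 5.60 CPM in Ezh2fl/null and 210 ± 7.34 CPM in Ezh2fl/+; SD, n = 4 each). Meis1 thus had a log2 fold change of -0.27 (SE 0.04, 95% limits -0.36 to -0.18, edgeR adjusted p = 0.000545). Exons of Meis1 share 896 bases with the antisense gene Gm16140, which had 65 counts in all Ezh2fl/null libraries and 108 in all Ezh2fl/+ libraries, against 11209 in Ezh2fl/null and 12788 in Ezh2fl/+ for Meis1. Use of strand in counting is, in the sources used here, not given. The summed level of the 5 retinal markers was lower in Ezh2fl/null libraries too, as given above; the part of fewer such cells in the Meis1 result was not tested.

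Meis3 (ENSMUSG00000041420, chromosome 7, 16175090 to 16186504, plus strand), the third Meis paralog, was not called. Its level was 47.2 to 51.4 CPM in Ezh2fl/null libraries and 47.2 to 49.6 CPM in Ezh2fl/+ libraries. The log2 fold change of 0.05 had 95% limits of -0.07 to 0.16 (edgeR adjusted p = 0.653), and the groups overlapped.

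The balance between the Meis genes shifted from Meis1 towards Meis2. On the authors' FPKM, which divide counts by gene length and counted reads, the ratio of the Meis1 level to the Meis2 level was 1.10, 1.11, 1.23 and 1.48 in Ezh2fl/null replicates 1 to 4. It was 2.94, 3.34, 3.36 and 3.42 in Ezh2fl/+ replicates 1 to 4. On FPKM, Meis1 thus still led Meis2 in every library, by a narrower margin in Ezh2fl/null. That lead depends on the gene lengths behind the FPKM, which imply 9471 bases for Meis1 and 11977 for Meis2. Raw counts were higher for Meis2 than Meis1 in Ezh2fl/null replicates 1 to 3 (3756, 2903 and 2585 against 3275, 2540 and 2524). They were lower for Meis2 in Ezh2fl/null replicate 4 (2458 against 2870) and in every Ezh2fl/+ library. Meis2 supplied 29.1 ± 3.04% of the summed Meis FPKM in Ezh2fl/null and 14.6 ± 0.664% in Ezh2fl/+ (SD, n = 4 each), Meis1 supplied 35.4 ± 1.34% of it in Ezh2fl/null and 47.4 ± 1.37% in Ezh2fl/+. Meis3 supplied 35.5 ± 2.24% of it in Ezh2fl/null and 38.0 ± 1.01% in Ezh2fl/+. The sum of the 3 levels was 52.3 ± 0.948 FPKM in Ezh2fl/null and 46.4 ± 1.62 FPKM in Ezh2fl/+. These ratios and shares were chosen after the levels were seen and are given with no test.

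**Figure D2:**
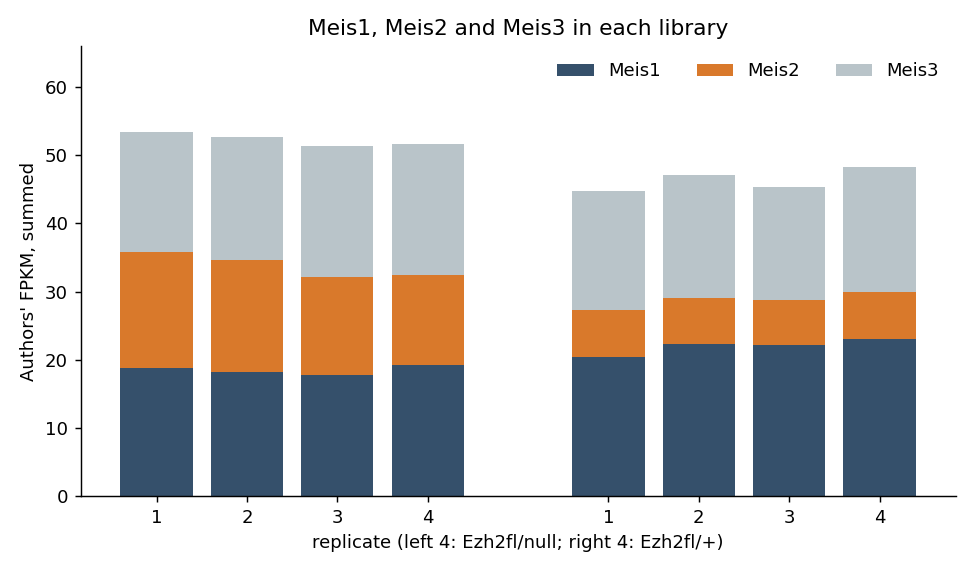
Bars give the authors' FPKM of Meis1, Meis2 and Meis3, stacked, for each library, with Ezh2fl/null replicates on the left and Ezh2fl/+ replicates on the right. The Meis2 part is 13.1 to 17.1 FPKM in Ezh2fl/null and 6.59 to 6.94 FPKM in Ezh2fl/+, and the Meis1 part is smaller in Ezh2fl/null.

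Among the Pbx genes, which encode the shared partners of Meis, Pknox and Hox proteins, Pbx3 rose. Pbx3 (ENSMUSG00000038718, chromosome 2, 34171457 to 34373142, minus strand) had 83.7, 90.1, 86.2 and 83.2 CPM in Ezh2fl/null replicates 1 to 4 and 71.3, 63.5, 62.6 and 60.1 CPM in Ezh2fl/+ replicates 1 to 4. All Ezh2fl/null libraries lay above all Ezh2fl/+ libraries. Pbx3 was 1.33-fold its Ezh2fl/+ level (log2 0.42, SE 0.06, 95% limits 0.29 to 0.54; edgeR adjusted p = 0.000226). Because Pbx2 did not rise with it, the Pbx3 level was 0.436 to 0.509 of the Pbx2 level in Ezh2fl/null libraries and 0.311 to 0.371 of it in Ezh2fl/+ libraries, on FPKM.

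Pbx2 (ENSMUSG00000034673, chromosome 17, 34591266 to 34597400, plus strand) was not called, although its groups were separate on the CPM scale. It had 101, 96.4, 96.5 and 104 CPM in Ezh2fl/null replicates 1 to 4 and 105, 106, 105 and 105 CPM in Ezh2fl/+ replicates 1 to 4. The nearest libraries of the groups differed little, at 103.8 CPM in Ezh2fl/null replicate 4 and 104.6 CPM in Ezh2fl/+ replicate 1. The log2 fold change was -0.08 (95% limits -0.17 to 0.01, edgeR adjusted p = 0.273), and on the authors' FPKM the groups overlapped. Pbx2 shares 227 exon bases with Gpsm3, which had 84 counts in Ezh2fl/null and 63 in Ezh2fl/+, against 6409 in Ezh2fl/null and 6395 in Ezh2fl/+ for Pbx2. Pbx4 (ENSMUSG00000031860, chromosome 8, 69832491 to 69872292, plus strand) was the least abundant member, with 52 to 78 counts in Ezh2fl/null libraries and 61 to 86 in Ezh2fl/+ libraries. Its log2 fold change of -0.21 had limits of -0.50 to 0.09 (edgeR adjusted p = 0.406), the widest of the 9. Without Ezh2fl/null replicate 4 the log2 fold change was -0.33 and still not called (edgeR adjusted p = 0.133; all 18 alternatives gave 0.133 to 0.835).

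Of the Pknox genes, whose proteins compete with Meis proteins for Pbx, Pknox2 rose and Pknox1 was not called. Pknox2 (ENSMUSG00000035934, chromosome 9, 36890982 to 37147407, minus strand) had 20.1, 20.7, 21.6 and 24.03 CPM in Ezh2fl/null replicates 1 to 4 and 17.1, 15.3, 16.0 and 17.8 CPM in Ezh2fl/+ replicates 1 to 4. The groups did not overlap. Pknox2 was 1.30-fold its Ezh2fl/+ level (log2 0.38, SE 0.08, 95% limits 0.21 to 0.55; edgeR adjusted p = 0.00420). Pknox1 (ENSMUSG00000006705, chromosome 17, 31564734 to 31607693, plus strand), the broadly expressed paralog, averaged 55.1 ± 0.901 CPM in Ezh2fl/null and 55.1 ± 2.78 CPM in Ezh2fl/+ (SD, n = 4 each). Its log2 fold change was -0.0029, with 95% limits of -0.12 to 0.11 (edgeR adjusted p = 0.983). The Pknox1 level was 2.57 to 2.96 times the Pknox2 level in Ezh2fl/null libraries and 3.37 to 3.89 times in Ezh2fl/+ libraries, on FPKM.

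Tgif1 (ENSMUSG00000047407, chromosome 17, 70844205 to 70853546, minus strand), the repressor of the group, was at 35.0 to 38.1 CPM in Ezh2fl/null libraries and 36.2 to 41.1 CPM in Ezh2fl/+ libraries. The ranges overlapped, and the log2 fold change was -0.08 (95% limits -0.20 to 0.04, edgeR adjusted p = 0.462).

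Levels of different members can be compared only per length, on the authors' FPKM, which depend on the gene models behind them. In Ezh2fl/null libraries the order was Pbx2 at 27.5 ± 1.54, Meis3 at 18.5 ± 0.842, Meis1 at 18.5 ± 0.676, Meis2 at 15.2 ± 1.83, Pbx3 at 12.9 ± 0.217, Tgif1 at 9.84 ± 0.649, Pknox1 at 8.05 ± 0.261, Pknox2 at 2.86 ± 0.282 and Pbx4 at 1.33 ± 0.236 FPKM (SD, n = 4). The libraries of Meis3 and Meis1 overlapped in that order, as did those of Meis2 and Pbx3. In Ezh2fl/+ libraries the order was Pbx2 at 28.6 ± 1.37, Meis1 at 21.998 ± 1.13, Meis3 at 17.6 ± 0.817, Tgif1 at 10.2 ± 0.371, Pbx3 at 9.53 ± 0.538, Pknox1 at 7.94 ± 0.675, Meis2 at 6.74 ± 0.1496, Pknox2 at 2.16 ± 0.185 and Pbx4 at 1.502 ± 0.126 FPKM (SD, n = 4). There only Tgif1 and Pbx3 overlapped as neighbours. Meis2 was thus 4th of the 9 in Ezh2fl/null and 7th in Ezh2fl/+, whereas Pbx2 led and Pbx4 was last in both.

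**Figure D3:**
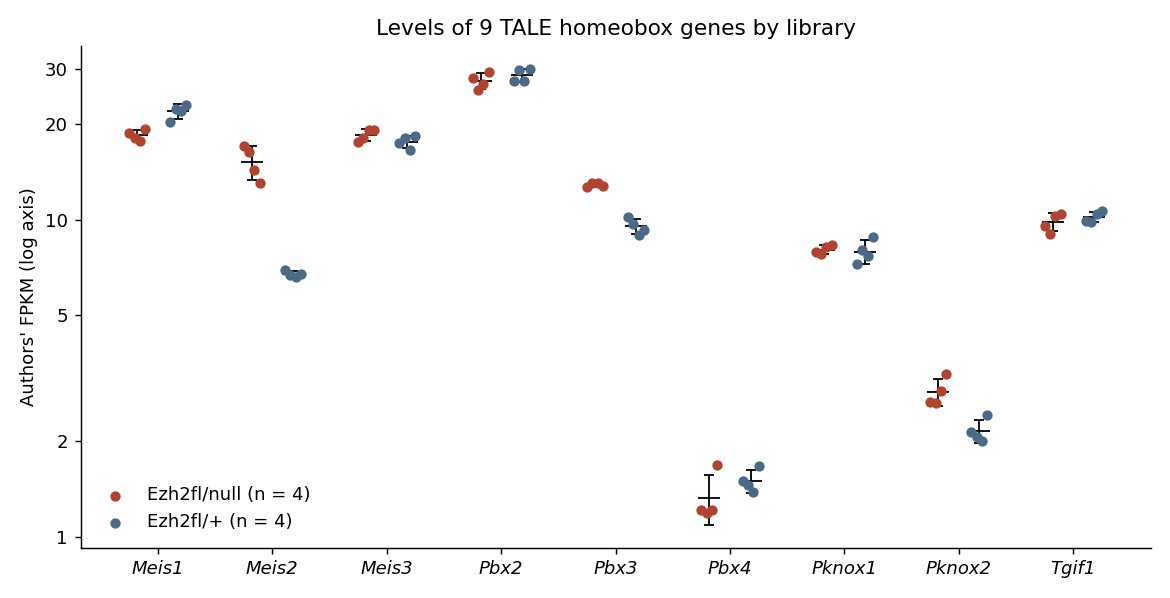
Each point is the authors' FPKM of a member in 1 library, on a log axis, with Ezh2fl/null left of Ezh2fl/+ for each gene. Bars give the mean and SD of 4 libraries. The groups are apart for Meis1, Meis2, Pbx3 and Pknox2, and overlap for the other 5 members.

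None of the 4 calls rested on a single library. The log2 fold change ran from 1.09 to 1.23 for Meis2, from -0.30 to -0.25 for Meis1, from 0.36 to 0.47 for Pbx3 and from 0.33 to 0.42 for Pknox2 over 18 alternatives, and each alternative kept the call. With the 6 male libraries alone the values were 1.12 for Meis2, -0.25 for Meis1, 0.38 for Pbx3 and 0.41 for Pknox2. Against Ezh2fl/+ replicates 1 and 3 alone the log2 fold change was 1.09 for Meis2, -0.28 for Meis1, 0.36 for Pbx3 and 0.38 for Pknox2. Against Ezh2fl/+ replicates 2 and 4 alone it was 1.21 for Meis2, -0.26 for Meis1, 0.47 for Pbx3 and 0.38 for Pknox2. The authors' deposited table lists log2 ratios of 1.13 for Meis2, -0.28 for Meis1, 0.41 for Pbx3 and 0.37 for Pknox2.

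**Figure D4:**
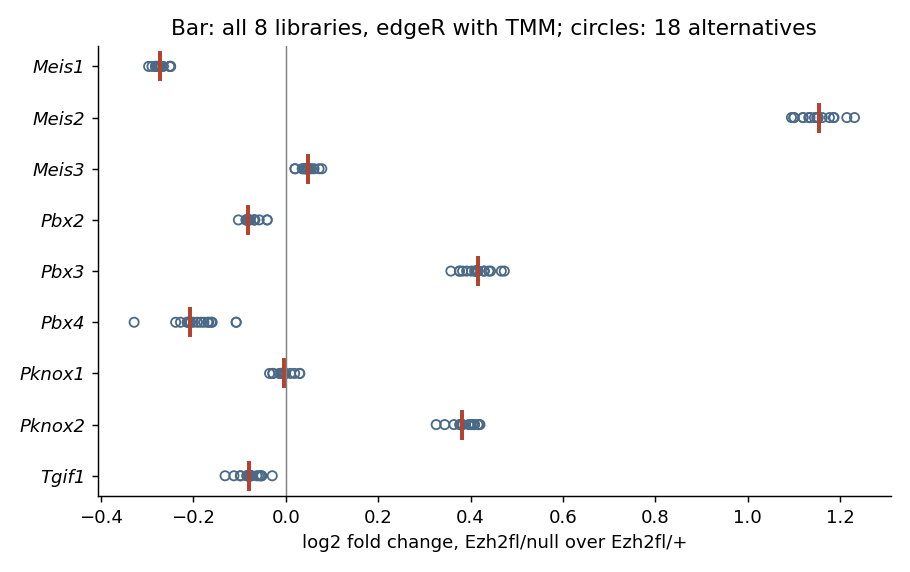
For each member, the bar marks the log2 fold change, Ezh2fl/null over Ezh2fl/+, from all 8 libraries, and the circles mark 18 alternatives (other scalings, DESeq2, no filter, a replicate block, sex, and libraries left out). The circles of Meis2, Meis1, Pbx3 and Pknox2 stay on 1 side of 0, and those of Pknox1 fall on both sides.

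Some markers of amacrine cells, which express Meis2 at later stages, were also higher. Of the 6 amacrine markers looked up, 3 were higher (Tfap2b, Tfap2c and Gad1) and 3 were not called (Tfap2a, Gad2 and Slc32a1). Among all genes tested, 8.35% were called higher and 3.46% lower. Their summed level was 249.99 to 297 CPM in Ezh2fl/null libraries and 210.1 to 222 CPM in Ezh2fl/+ libraries, of which Tfap2b alone gave 182 ± 11.3 CPM in Ezh2fl/null and 143 ± 10.04 CPM in Ezh2fl/+ (SD, n = 4 each). The sums were 287, 297, 249.99 and 258 CPM in Ezh2fl/null replicates 1 to 4. Gad2, which was not called, was at 64.9, 68.9, 45.9 and 48.9 CPM in the same libraries. The part of amacrine cells in the Meis2 result was not tested. A wider list of 12 amacrine and inhibitory neuron genes, 11 of them tested, had 5 higher, 0 lower and 6 not called, with a median log2 fold change of 0.33. With DESeq2 the list had 0 lower genes too, and at an unadjusted p under 0.05 edgeR also had 0 lower genes. The share of all genes at that unadjusted p was not counted. Among the higher genes were the transcription factor gene Bhlhe22 (48.9 ± 4.70 CPM in Ezh2fl/null and 29.8 ± 0.993 CPM in Ezh2fl/+, log2 0.71), Tfap2c (log2 0.56) and Tfap2b (log2 0.35).

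Markers of mesenchyme, a tissue around the eye in which Meis and Pbx genes are also active, were also looked up. Of 13 such markers 12 were in the table and 11 were tested. Of these, 5 were higher, Prrx1, Twist1 and Pdgfra among them, where 8.35% of all genes tested were called higher. The other 6 were not called, the collagen genes Col1a1, Col1a2 and Col3a1 among them. The mesenchyme markers summed to 46.1, 72.3, 96.4 and 99.2 CPM in Ezh2fl/null replicates 1 to 4. In Ezh2fl/+ replicates 1 to 4 the sum was 48.1, 62.3, 42.5 and 70.3 CPM, so the groups overlapped. Col1a1, which was not called, was at 2.53, 10.4, 23.2 and 20.5 CPM in Ezh2fl/null replicates 1 to 4. The part of mesenchyme cells in the member results was not tested. Pigment epithelium markers summed to 11.1 to 24.2 CPM in Ezh2fl/null and 10.9 to 36.9 CPM in Ezh2fl/+, and ganglion cell markers to 677 to 708 CPM in Ezh2fl/null and 662 to 778 CPM in Ezh2fl/+, so both sums overlapped. Of the 5 ganglion cell markers 2 were nevertheless called lower, where 3.46% of all genes tested were called lower. The ganglion cell transcription factor gene Pou4f2 was at 35.2 ± 5.44 CPM in Ezh2fl/null and 68.5 ± 7.10 CPM in Ezh2fl/+ (SD, n = 4 each; log2 -0.96, edgeR adjusted p = 1.07e-05), and Isl1 had a log2 fold change of -0.17 (edgeR adjusted p = 0.0428). Sncg, not called, made up the largest part of that sum, at 309.98 CPM in Ezh2fl/null and 298 CPM in Ezh2fl/+. Pou4f1, a related factor gene on the same list, lay in the other direction from Pou4f2 and was not called. It was at 126 ± 6.03 CPM in Ezh2fl/null and 110 ± 10.6 CPM in Ezh2fl/+ (SD, n = 4 each; log2 0.20, edgeR adjusted p = 0.0528). Of 5 endothelial markers 3 were in the table. Kdr, which retinal cells express as well, was at 281 ± 17.2 CPM in Ezh2fl/null and 332 ± 12.96 CPM in Ezh2fl/+ (SD, n = 4 each) and was called lower (log2 -0.24, edgeR adjusted p = 0.00697). Pecam1, which was not called, averaged 0.597 CPM in Ezh2fl/null and 0.524 CPM in Ezh2fl/+. Cdh5, which was not tested, averaged 0.474 CPM in Ezh2fl/null and 0.322 CPM in Ezh2fl/+.

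**Figure D5:**
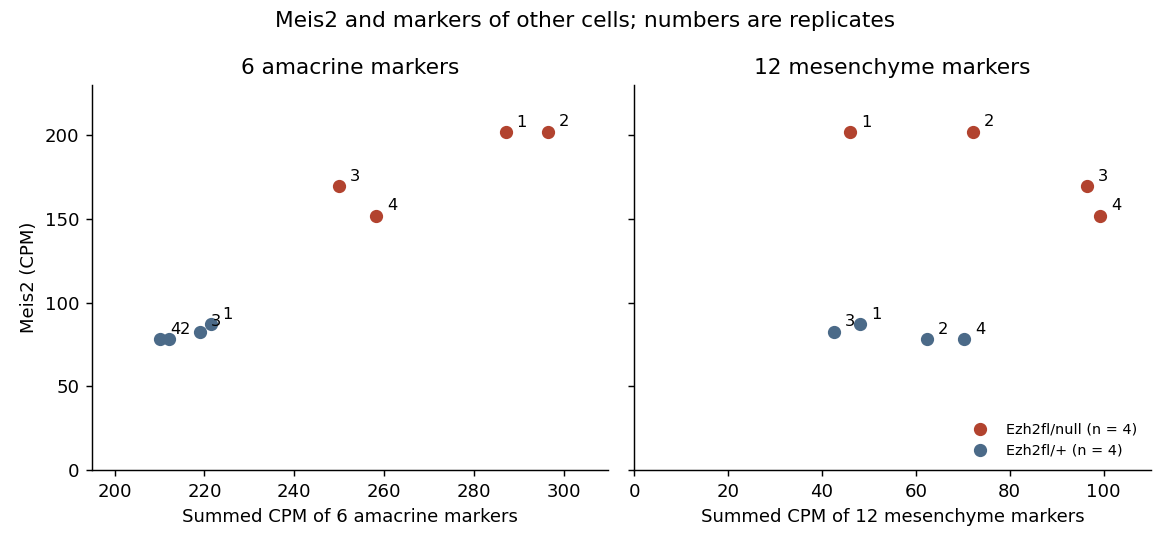
Each point is a library, with Meis2 in CPM on the vertical axis and the summed CPM of 6 amacrine markers (left) or 12 mesenchyme markers (right) on the horizontal axis; numbers are replicates. The Ezh2fl/null libraries lie above 150 CPM of Meis2 and the Ezh2fl/+ libraries under 90, with separate amacrine sums and overlapping mesenchyme sums.

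Among the other TALE genes more were called lower than higher. A list of 9 further TALE genes, which holds the 6 Irx genes and Mkx, had 1 called higher, 3 lower and 5 not called. Over all genes tested, 8.35% were called higher and 3.46% lower. The list had a median log2 fold change of -0.14. Irx1 (chromosome 13) was at 1.98 ± 0.255 CPM in Ezh2fl/null and 3.88 ± 0.386 CPM in Ezh2fl/+ (SD, n = 4 each), a log2 fold change of -0.96 (edgeR adjusted p = 0.000594). Its neighbour Irx2 was at 32.3 ± 2.91 CPM in Ezh2fl/null and 43.6 ± 3.13 CPM in Ezh2fl/+ (log2 -0.43, edgeR adjusted p = 0.000891). Irx6 on chromosome 8, a bipolar cell gene in mouse retina, was at 14.4 ± 1.77 CPM in Ezh2fl/null and 19.9 ± 1.97 CPM in Ezh2fl/+ (log2 -0.46, edgeR adjusted p = 0.00460). That call ended against Ezh2fl/+ replicates 2 and 4 alone, at log2 -0.38 (edgeR adjusted p = 0.0537; the 18 alternatives gave 0.000449 to 0.0537). Mkx on chromosome 18, a tendon regulator, was the higher gene, with 29 to 38 counts in Ezh2fl/null libraries and 6 to 14 in Ezh2fl/+ libraries (2.001 ± 0.0663 CPM in Ezh2fl/null and 0.699 ± 0.197 CPM in Ezh2fl/+, log2 1.49, edgeR adjusted p = 0.000328). The PBX-binding protein gene Pbxip1 was not called (log2 -0.12, edgeR adjusted p = 0.275).

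Hox genes, the classical partners of the Pbx and Meis proteins, were counted almost only in Ezh2fl/null libraries. The 23 Hox genes in the table summed to 47.9, 68.5, 47.4 and 47.8 CPM in Ezh2fl/null replicates 1 to 4 and to 0.225, 0.0655, 0.281 and 0 CPM in Ezh2fl/+ replicates 1 to 4. Of them 18 were tested and all 18 were higher, but a Hox gene passes the count filter only through its Ezh2fl/null counts, so that share had to be high. Hoxb2 averaged 7.08 CPM in Ezh2fl/null and 0.0912 CPM in Ezh2fl/+, and Hoxb9 averaged 3.81 CPM in Ezh2fl/null and 0.0175 CPM in Ezh2fl/+. Hoxb8 and Hoxc4 averaged 3.93 and 3.06 CPM in Ezh2fl/null and had no count in Ezh2fl/+. The TALE members, by contrast, were all counted in Ezh2fl/+, where each had at least 61 counts in every library.

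Genes known to act beside the TALE proteins in the eye or in Smad signalling were counted in a pair of lists. The list of 10 eye field and progenitor genes had 1 higher, 2 lower and 7 uncalled, where 11.8% of all genes tested were called, with a median log2 fold change of -0.08. The cell cycle gene Ccnd1 was at 3217 ± 183 CPM in Ezh2fl/null and 4102 ± 131 CPM in Ezh2fl/+ (SD, n = 4 each; log2 -0.35, edgeR adjusted p = 0.00189). Otx2, a photoreceptor and pigment epithelium factor, was higher (277 ± 13.4 CPM in Ezh2fl/null and 231 ± 7.44 CPM in Ezh2fl/+, log2 0.26, edgeR adjusted p = 0.00166). Pax6, a known target of Meis proteins in the eye, was at 681 ± 6.55 CPM in Ezh2fl/null and 729 ± 16.3 CPM in Ezh2fl/+, a log2 fold change of -0.10 that was not called (edgeR adjusted p = 0.236). The list of 10 partners of Tgif1 in Smad corepression had 0 higher, 1 lower and 9 uncalled, near the 11.8% called over all genes. DESeq2 gave 0 higher too, and at an unadjusted p under 0.05 edgeR gave 1 higher and 4 lower genes. The share of all genes at that unadjusted p was not counted. The gene called lower was Skil, which encodes SnoN. Skil was at 321 ± 4.34 CPM in Ezh2fl/null and 390 ± 15.2 CPM in Ezh2fl/+ (log2 -0.28, edgeR adjusted p = 0.000622).

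The genes whose pattern over the 8 libraries was most like that of each called member were sought among 12640 genes, by Pearson's r of log2 CPM. All 8 points share the difference between the groups, so a high r mostly states that another gene differs the same way. For Meis2 they were Bhlhe22, Prdm8 and Slc1a1 (r = 0.997, 0.997 and 0.996), of which Bhlhe22 is also on the amacrine list. For Meis1 they were Ralgps2, Ror1 and Egfem1 (r = 0.983, 0.980 and 0.977), all lower in Ezh2fl/null. For Pbx3 they were Megf10, Dlk2 and Pde4b (r = 0.990, 0.987 and 0.986), and for Pknox2 Atcay, Slc38a3 and Rasd2 (r = 0.989, 0.987 and 0.983), all 6 higher in Ezh2fl/null.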

How the data were processed

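The deposited table gives, per the file headers, whole-number counts, FPKM, a log2 ratio and an adjusted p for 16096 genes. The authors aligned reads with Novoalign 2.08.01 to mm10 and used DESeq2, per the submitters' processing notes; how reads were counted, on which annotation and strand, and which genes were kept is, in the sources used here, not given. The deposited counts are not normalized. The authors' FPKM are per gene model length and counted reads, and imply lengths of 2718 bases (Meis3) to 11977 bases (Meis2). The authors' log2 ratio was copied for 4 members, and the deposited adjusted p, a score on an unnamed scale, was not used.

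Counts were tested across all genes with edgeR 4.0.16 (R 4.3.3): TMM, filterByExpr (minimum count 10), glmQLFit, glmQLFTest and Benjamini-Hochberg adjustment, 4 against 4 libraries, no covariate. The filter left 15014 genes. TMM factors were 0.955 to 1.04. The quasi-likelihood F statistic gave the standard errors. CPM use normalized library sizes. DESeq2 1.42.0 was an alternative. The procedure was tested on simulated data. Coordinates and exon overlaps came from GENCODE M21, which holds 15833 of the identifiers. For any of 66 repeated symbols, the most counted row stood for the symbol.

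The members, the lists and the alternatives were chosen with earlier results of these data known. Named genes were the members, Ezh2, up to 4 called genes of a list with the smallest p, and for each called member the 3 genes most correlated with it, among genes averaging at least 1 CPM (prior count 1). Genes named as markers or because the text turns on them were added after their values were seen. Some genes of the lists are counted but not reported here by name. Same-numbered libraries deviated together weakly or not at all (r = 0.24, -0.10, 0.01 and 0.17 for replicates 1 to 4). Replicates 1 and 4 correlated best with their own number, and replicates 2 and 3 did not. The numbers were not taken as pairs in the main fit, and a replicate block was an alternative. No 2 libraries of the same group were alike within sampling noise, at a chi-square of 4.68 to 24.0 per degree of freedom. Libraries of different groups were not compared in this way.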

Additional observations from a re-analysis of the deposited data

Results flagged for a closer look

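A library stood apart from the other 3 of its group in 5 of 44 sets of 4 libraries examined (22 genes in 2 groups), by a gap test that chance passes in about 1 set in 20. Meis1 was at 166 CPM in Ezh2fl/null replicate 3, against 176 to 177 CPM in the other 3. Pbx4 was at 4.82 CPM in Ezh2fl/null replicate 4, against 3.54 to 3.62 CPM in the others and 4.19 to 4.79 CPM in the Ezh2fl/+ libraries. Mkx was at 1.90 CPM in Ezh2fl/null replicate 3, against 2.02 to 2.04 CPM. Ccnd1 was at 2945 CPM in Ezh2fl/null replicate 2, against 3286 to 3337 CPM. Tfap2c was at 12.3 CPM in Ezh2fl/+ replicate 2, against 10.2 to 10.5 CPM.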

How the results depend on the processing

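Each of the 9 members kept its call or lack of one under all 18 alternatives, of which 2 (subsets of the Ezh2fl/+ libraries) were added after the data were seen. With the replicate number as a block, which the labels do not tie to a litter or batch, Meis2 was at log2 1.14, Meis1 at -0.27, Pbx3 at 0.42 and Pknox2 at 0.38, and 1179 genes were higher and 497 lower; not every library correlated best with its own number. Over all genes, 1253 were higher and 520 lower. The higher count was 800 with male libraries alone, 795 with sex as a covariate and 696 against Ezh2fl/+ replicates 1 and 3. The lower count was 273 with total counts alone, 255 with male libraries alone, 246 with sex as a covariate, 323 without the libraries with lens counts, 243 against Ezh2fl/+ replicates 1 and 3, 235 against replicates 2 and 4, and 329 (without Ezh2fl/+ replicate 3) to 667 (without Ezh2fl/null replicate 4) with 1 library left out. Several of these fits use fewer libraries; otherwise the cause was not tested. The share of calls that were higher was 70.7%, and 82.5% with total counts alone. Counts were lowest for Pbx4 among the members, at 52 to 86 a library, and Mkx had 6 to 38.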
